A study of Mus musculus with 18 samples.

Results

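The comparison described here set tracheal basal stem cells (BSCs) of the mouse against the club cell-enriched fraction of the lung airways, here called airway CD24lo cells. Its members were the 6 RNA-seq libraries whose sample labels name these populations, 3 for each, out of 18 libraries in the series. All animals were C57BL/6 mice with no genetic change or treatment in the labels. The methods name males aged 8 to 12 weeks, and the labels give neither age nor sex. BSCs were NGFR-positive cells of normal trachea from mice 1, 2 and 3, released with dispase and then trypsin. Airway CD24lo cells were EpCAM-positive, CD104-positive cells with low CD24 from the normal lungs of mice 4, 5 and 6, released with collagenase. Population, organ, digestion and set of mice therefore changed together, and their parts in a difference cannot be told apart. The tracheal non-basal cells of mice 1 to 3, which lack NGFR, share organ and mice with the BSCs, and their values are given beside the comparison where they help to read it. Each sort is an enrichment and not a pure cell type, and in bulk RNA fewer cells of a type and less RNA per cell cannot be told apart.

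The conducting airways of the mouse are renewed by different progenitors along their length. Basal cells lie on the basement membrane of the trachea, are defined by the transcription factor p63 and keratins 5 and 14, and give rise to secretory and ciliated cells. Club cells line the bronchioles, where mice have few or no basal cells. They secrete the secretoglobin SCGB1A1, detoxify inhaled compounds with cytochromes P450, and renew themselves and the ciliated cells.

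The BSC libraries held between 29317215 and 31028030 counted reads and the airway CD24lo libraries between 9811503 and 11693754, so rare transcripts were measured with less counting error in BSCs. A single gene, *Scgb1a1*, took between 21.48% and 27.58% of the airway CD24lo reads. Levels are given as RPKM, reads per kilobase of gene and scaled to sequencing depth by TMM, and differences as log2 fold changes (log2FC), BSC minus airway CD24lo, with the standard error (SE) of the fit. In both groups replicate 1 stood apart: the chi-square per degree of freedom between replicates was 19.3 and 24.4 for BSC replicate 1 against 4.84 between the other two, and 19.9 and 20.4 for airway CD24lo replicate 1 against 6.26. BSC replicate 1 held reads of Y-linked genes and *Xist* at 0.0698 RPKM, whereas BSC replicates 2 and 3 had *Xist* at 39.3 and 50.1 RPKM, which goes against the male sex in the methods. All 3 airway CD24lo libraries held reads of the Y-linked gene *Kdm5d* and had *Xist* at 0.0308, 0.0658 and 0.0193 RPKM, so the balance of the sexes differed between the groups. Airway CD24lo replicate 1 held more transcripts of endothelial, mesenchymal and ciliated cells than replicates 2 and 3, as given below.

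The defining genes of both populations followed the labels. *Krt5*, the keratin that marks basal cells, was at 1567, 1571 and 1478 RPKM in the 3 BSC libraries and at 31.9, 59.99 and 36.5 RPKM in the airway CD24lo libraries, a log2 fold change of 5.17 (SE 0.263) with an edgeR adjusted p of 2.86e-11. Its partner *Krt14* was at 69.9, 90.97 and 95.6 RPKM against 0.444, 1.01 and 0.694 RPKM (log2FC 6.90, SE 0.2802, edgeR adjusted p 1.82e-12). *Trp63*, the gene of p63, was at 86.8, 102 and 104 RPKM against 6.78, 11.9 and 8.57 RPKM (log2FC 3.43, SE 0.2703, edgeR adjusted p 6.25e-09). For each of these genes every BSC library lay above every airway CD24lo library, but *Krt5* and *Trp63* were not absent from the lung cells. *Ngfr*, which encodes the receptor used to sort BSCs, was at 42.3, 36.9 and 39.8 RPKM against 2.73, 3.399 and 2.296 RPKM. In tracheal non-basal cells *Krt5* was at 119.8 ± 14.4 RPKM and *Trp63* at 12.4 ± 4.11 RPKM (SD, n = 3), nearer to airway CD24lo cells than to BSCs.

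*Scgb1a1* was at 1706, 1249 and 972 RPKM in the BSC libraries and at 471800, 658300 and 665700 RPKM in the airway CD24lo libraries (log2FC -8.84, SE 0.333, edgeR adjusted p 7.52e-13). The groups did not overlap, and BSC replicate 1 held the highest of the 3 BSC values. *Scgb3a2*, a further secretoglobin, was at 2325, 2043 and 1817 RPKM against 8602, 10180 and 13320 RPKM (log2FC -2.38, SE 0.199). The cytochrome *Cyp2f2* was the least unequal of the 3 club markers, at 7570, 6942 and 6803 RPKM against 9815, 13090 and 11880 RPKM (log2FC -0.71, SE 0.187, edgeR adjusted p 0.00319); by library size alone its log2FC was -0.32 with an edgeR adjusted p of 0.11. BSC libraries thus contained abundant *Cyp2f2* and *Scgb3a2* transcripts, though less than the tracheal non-basal cells of the same mice, where *Cyp2f2* was at 14270 ± 902 RPKM and *Scgb3a2* at 12870 ± 674 RPKM (SD, n = 3). Of the genes behind the sorting antibodies, *Itgb4* (CD104) was higher in BSCs at 132, 144 and 147 RPKM against 19.04, 18.8 and 12.4 RPKM. *Cd24a* was lower at 93.8, 113 and 108 RPKM against 338, 339 and 343 RPKM, and *Epcam* was nearly level, at 107, 96.8 and 100.2 RPKM against 83.7, 89.8 and 85.8 RPKM (log2FC 0.23, SE 0.0831, edgeR adjusted p 0.0232). The *Epcam* call ended when BSC replicate 1, or airway CD24lo replicate 1 or 3, was left out, with edgeR adjusted p values of 0.0898, 0.0692 and 0.0648.

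**Figure D1:**
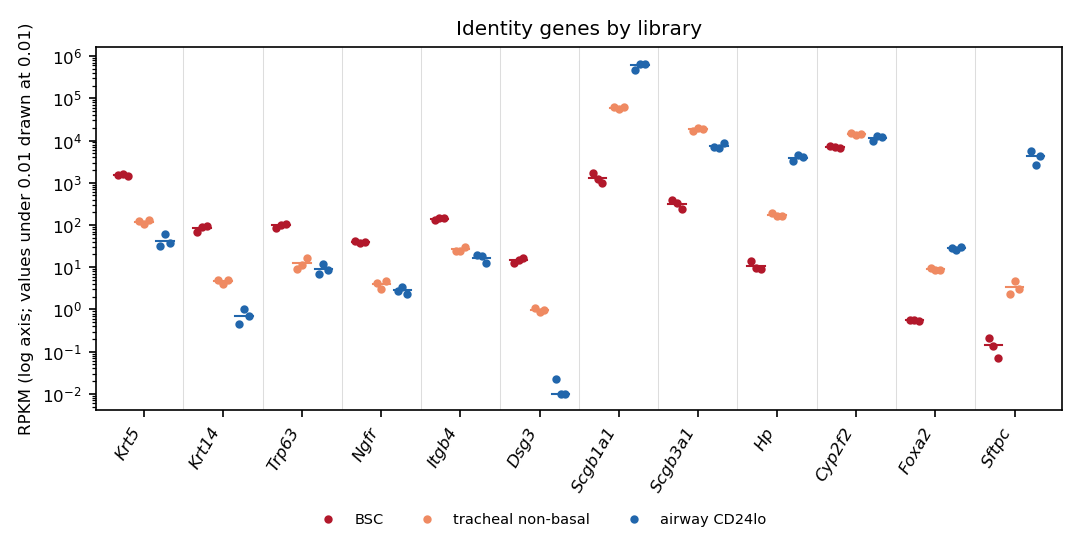
Level of 12 identity genes in each library (points, RPKM on a log axis; short lines, means) for BSCs, tracheal non-basal cells and airway CD24lo cells, 3 libraries each. The first 6 genes were highest in BSCs, *Scgb1a1*, *Hp*, *Foxa2* and *Sftpc* were highest in airway CD24lo cells among these populations, and *Cyp2f2* lay between 6803 and 7570 RPKM in BSCs.

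The transcriptomes differed widely. Of 17989 genes tested, 5204 (28.9%) were higher in BSCs and 6265 (34.8%) lower at an adjusted p under 0.05 (edgeR quasi-likelihood, Benjamini-Hochberg adjustment), 63.8% in all. The shares without overlap between the groups were 32.3% higher and 35.8% lower. Over all genes tested the median difference was -0.0984 on the log2 scale. The split depends on the scaling: by library size alone, which counts the *Scgb1a1* reads into the total, 7860 genes lay higher and 4565 lower in BSCs, with a median of 0.265, so differences near 0 have no secure sign. Among the 11469 genes called, 6206 differed by more than 2-fold and 1677 by more than 16-fold. Of the 5204 higher genes, 2685 had their highest mean level of all 6 populations in BSCs themselves. Of the 6265 lower genes, 828 were highest in airway CD24lo cells, 1969 in airway CD24hi cells, 1892 in EpCAM-negative lung cells and 1223 in alveolar cells. The lower genes were thus mostly ones that another sorted lung fraction expressed more strongly than the airway CD24lo fraction. The counts in the gene lists below stand beside these shares of 28.9% and 34.8% over all genes.

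**Figure D2:**
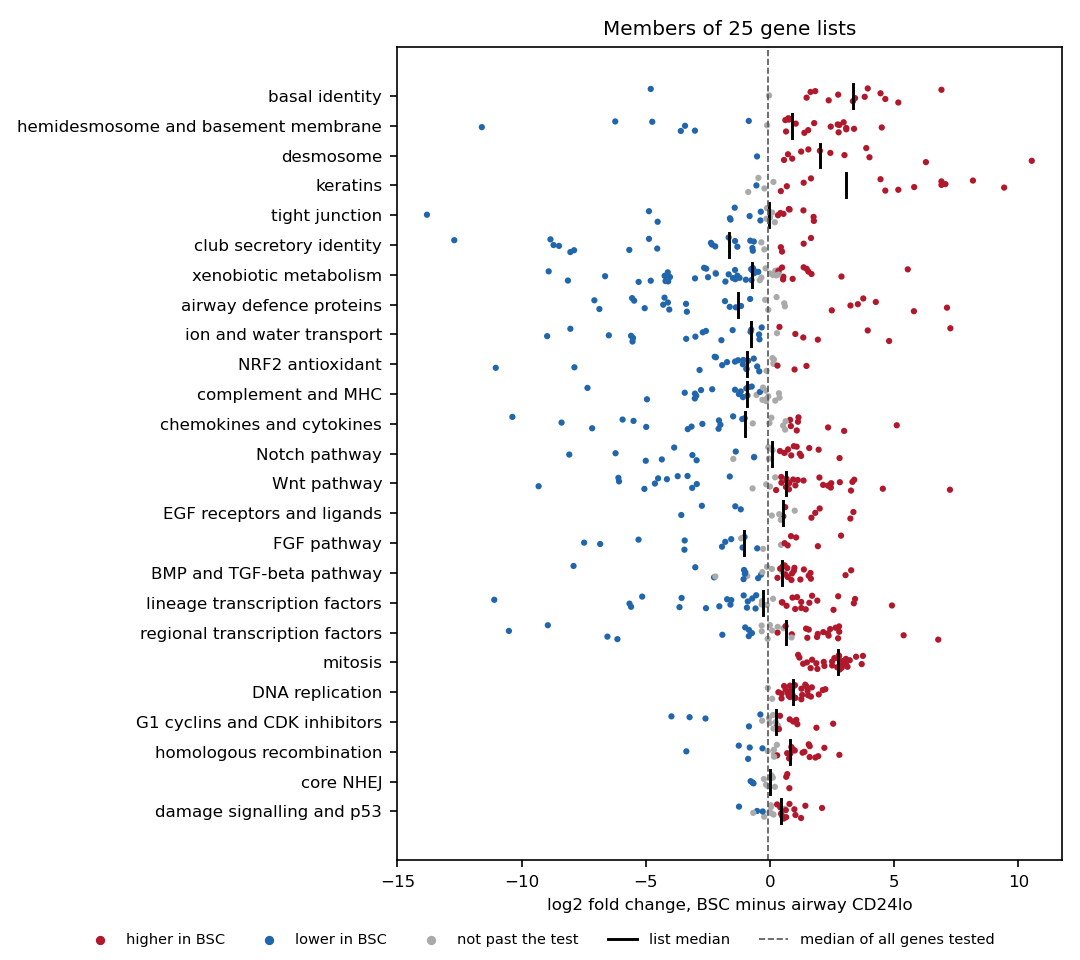
Log2 fold change (BSC minus airway CD24lo) of every tested member of 25 gene lists; red points were higher and blue points lower in BSCs at an adjusted p under 0.05, grey points did not pass, black bars are list medians and the dashed line is the median of all genes, -0.0984. Mitosis genes all lay to the right of 0, and the median of the club secretory list was -1.66.

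The airway CD24lo fraction held transcripts of other lung cells. *Sftpc*, the surfactant gene that defines alveolar type 2 cells, was at 5709, 2697 and 4243 RPKM in the airway CD24lo libraries, which is 3.65%, 1.73% and 2.72% of its mean in the alveolar libraries, and at 0.212, 0.138 and 0.0702 RPKM in BSCs. Of the 14 alveolar type 2 markers, 13 were lower in BSCs and 1 was higher. Their summed level was 8483 to 11610 RPKM in airway CD24lo libraries and 401.7 to 736.4 RPKM in BSC libraries. In tracheal non-basal libraries the sum was 7342 to 10090 RPKM, although *Sftpc* was at 3.38 ± 1.26 RPKM there (SD, n = 3). *Lyz2* alone had a mean of 7340 RPKM in those cells, so the sum is no measure of alveolar type 2 cells. As a share of the alveolar mean, the markers did not move as one: *Lamp3* and *Napsa* were below 4% in every airway CD24lo library, whereas *Sftpb* reached 12.9%, 15.3% and 13.2% and *Sftpd* 17.8%, 22.0% and 23.6%. *Sftpb* and *Sftpd* are surfactant genes that bronchiolar cells also express. Of the 12 alveolar type 1 markers 7 were lower in BSCs, 3 higher and 2 not past the test, and their summed levels overlapped, at 913.6 to 931.8 RPKM in BSC and 687.5 to 918 RPKM in airway CD24lo libraries. *Ager*, the most unequal of them, was at 237, 222 and 171 RPKM against 1.56, 1.96 and 1.81 RPKM in BSCs.

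All 10 endothelial markers were lower in BSCs. *Cdh5*, which encodes the adhesion molecule of endothelial junctions, was at 49.7, 19.5 and 16.2 RPKM in the airway CD24lo libraries and had 0 reads in the 3 BSC libraries, so it was at least 4039-fold lower in BSCs by a floor of 3 reads over the group. Replicate 1 was the highest, and the summed endothelial markers were at 547.8 RPKM there against 189.9 and 172.0 RPKM in replicates 2 and 3. *Pecam1*, the gene of CD31, which the study's lung sorts deplete by antibody, was at 72.7, 25.2 and 23.7 RPKM, 154%, 53.5% and 50.3% of its mean in EpCAM-negative cells, against 0.146, 0.109 and 0.111 RPKM in BSCs. Of 14 mesenchymal markers tested, 11 were also lower, 1 was higher and 2 did not pass. *Col1a1* was at 22.02, 13.5 and 14.3 RPKM against 0.0242, 0 and 0.03598 RPKM. In airway CD24lo cells the median marker was at 3.63%, 2.01% and 2.29% of the EpCAM-negative mean. *Dcn* ran the other way, at 5.74%, 5.82% and 5.71% of that mean in BSCs against 3.63%, 4.29% and 3.29% in airway CD24lo cells. Ciliated cell markers were lower in 22 of 25. *Foxj1*, the master regulator of motile cilia, was at 108, 51.5 and 52.6 RPKM in airway CD24lo and 6.48, 5.93 and 4.57 RPKM in BSC libraries, again highest in airway CD24lo replicate 1. Of 12 immune markers 4 were lower in BSCs, 1 was higher and 7 did not pass, and without airway CD24lo replicate 1 only 2 were lower. *Lcp1*, *Cd3e*, *Cd79a* and *S100a8* were the lower ones (the *Cd3e* call was lost without airway CD24lo replicate 1 and without BSC replicate 2 or 3), *S100a8* at 0.0726, 0.211 and 0.288 RPKM against 3.05, 4.01 and 9.397 RPKM, and *Csf1r* was the higher one, at 3.897, 4.999 and 5.22 RPKM against 2.88, 1.9 and 2.38 RPKM. *Ptprc* (CD45) was at 0.999, 1.303 and 1.17 RPKM against 1.27, 0.867 and 2.48 RPKM and did not pass. The part of these other cells in the differences below was not tested.

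**Figure D3:**
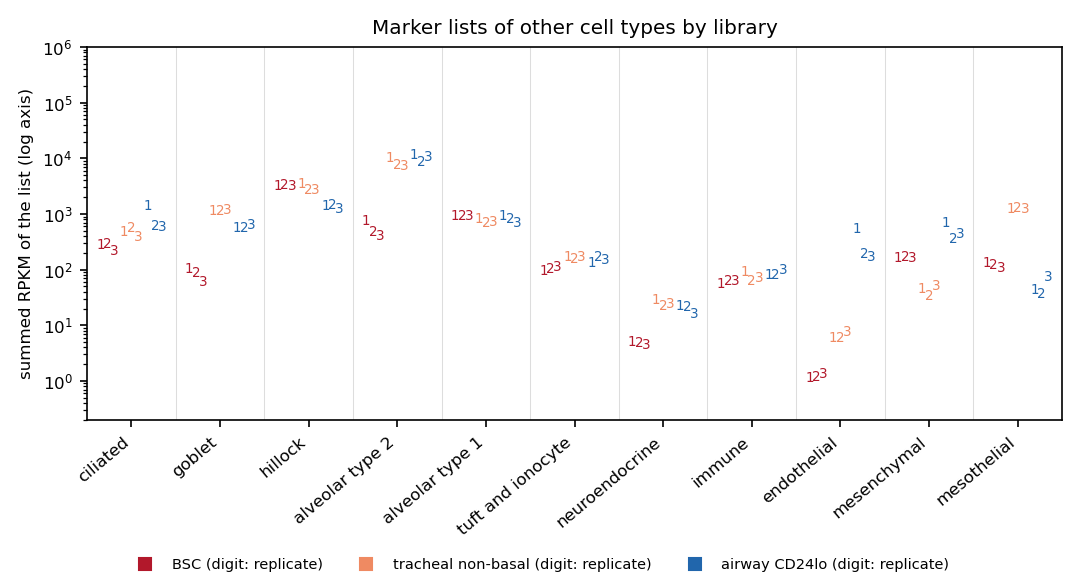
Summed RPKM (log axis) of 11 marker lists of other cell types in each library of BSCs, tracheal non-basal cells and airway CD24lo cells; each digit is a replicate at its value. Endothelial sums were 1.14 to 1.31 RPKM in BSCs and 172.0 to 547.8 RPKM in airway CD24lo cells, with replicate 1 the highest.

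Genes that anchor cells to the basement membrane were higher in BSCs. Of 26 tested genes of hemidesmosomes and basement membrane, 18 were higher, 7 lower and 1 did not pass, with a median log2 fold change of 0.905. *Col17a1*, the transmembrane collagen of hemidesmosomes, was at 128, 137 and 140.3 RPKM in BSCs against 5.02, 7.83 and 5.05 RPKM (log2FC 4.50, SE 0.177, edgeR adjusted p 1.23e-12). The integrin pair *Itga6* and *Itgb4*, its laminin-332 ligands *Lama3* and *Lamb3*, and the linker *Plec* had log2 fold changes of 2.73, 3.07, 2.97, 3.07 and 2.79. The anchoring fibril collagen *Col7a1* was at 27.4, 26.02 and 29.8 RPKM against 2.82, 3.17 and 1.94 RPKM. In tracheal non-basal cells *Col17a1* was at 11.3 ± 1.79 RPKM and *Itgb4* at 26.4 ± 3.57 RPKM (SD, n = 3). The 7 lower members were network components of vascular and stromal basement membranes, among them *Col4a1* at 34.6, 18.8 and 15.3 RPKM in airway CD24lo cells against 0.598, 0.885 and 1.09 RPKM and the nidogen *Nid1* at 6.66, 3.72 and 4.13 RPKM against 0.0423, 0.03199 and 0.117 RPKM. All 7 were highest in EpCAM-negative cells, and *Col4a1*, like the endothelial markers, was highest in replicate 1 of the airway CD24lo libraries.

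Desmosomes, which join neighbouring cells through keratin filaments, showed the most one-sided list among the junctions: 12 of 13 tested genes were higher in BSCs and 1 was lower, with a median of 2.01. *Dsg3*, a desmosomal cadherin of stratified epithelia, was at 12.8, 14.5 and 16.4 RPKM in BSCs, from 6407 reads, and had 1 read in all airway CD24lo libraries. The plakophilin *Pkp1* was at 70.3, 76.7 and 76.5 RPKM against 0.821, 1.23 and 0.821 RPKM (log2FC 6.28, SE 0.161). The cadherins *Dsc2* and *Dsc3* had log2 fold changes of 3.88 and 4.01. Broadly expressed parts of the desmosome differed less, *Jup* by 0.90 and *Dsg2* by 1.25, and the one lower gene was *Pkp2*, at 11.9, 12.8 and 13.1 RPKM against 16.2, 19.02 and 18.9 RPKM (log2FC -0.52, SE 0.0874). In tracheal non-basal cells *Dsg3* was at 0.956 ± 0.104 RPKM and *Pkp1* at 8.89 ± 0.98 RPKM (SD, n = 3).

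Tight junction genes, which seal the luminal side of an epithelium, had no common direction, with 8 higher, 9 lower and 5 not past the test of 22 and a median of -0.0573, which moved to 0.323 by library size alone. The claudins divided: *Cldn1* was higher in BSCs (1.76, 2.08 and 2.94 against 0.596, 0.515 and 0.923 RPKM), and *Cldn3* (91.4, 95.98 and 80.95 against 286, 287 and 247 RPKM) and *Cldn10* (5.49, 3.88 and 4.24 against 102, 150.3 and 146 RPKM) were lower. *Cldn18*, a claudin of the alveolar epithelium, had 0 BSC reads and was at least 3440-fold lower. Its mean was 310.1 ± 15.4 RPKM in alveolar, 112.6 ± 2.78 RPKM in airway CD24hi and 30.97 ± 12.45 RPKM in airway CD24lo cells (SD, n = 3). The polarity scaffold *Pard3* was higher (log2FC 1.77, SE 0.0799) and the apical polarity gene *Crb3* lower (log2FC -1.59, SE 0.109). *Cldn1* was highest in EpCAM-negative cells, *Cldn3* in airway CD24hi cells and *Crb3* in alveolar cells.

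Of 18 keratin genes tested, 13 were higher in BSCs, 1 was lower (0 without BSC replicate 3) and 4 did not pass, with a median of 3.05. Beside *Krt5* and *Krt14*, the basal keratins *Krt15* at 2593, 2412 and 2236 RPKM against 71.7, 115 and 103 RPKM and *Krt17* at 509, 679 and 573 RPKM against 23.7, 29.8 and 27.1 RPKM were higher in every BSC library. Keratins of stratified or injured epithelium were also far apart. *Krt4* was at 444, 418 and 393 RPKM against 0.906, 1.61 and 1.89 RPKM (log2FC 8.17, SE 0.265), *Krt13* at 165, 161 and 162 RPKM against 3.15, 3.51 and 1.93 RPKM (log2FC 5.81, SE 0.354), and *Krt6a* at 25.4, 45.9 and 43.7 RPKM against 0.163, 0.348 and 0.357 RPKM (log2FC 7.06, SE 0.334). *Krt4* and *Krt13* mark the hillock cells of the trachea. The 8 hillock markers, 7 of them higher and *Cldn3* lower, had a median level of 123%, 134% and 129% of the tracheal non-basal mean in the BSC libraries, and *Krt4* was at 256 ± 53.6 RPKM in the non-basal cells (SD, n = 3). Of the simple keratins of luminal cells, *Krt7* was higher in BSCs, at 378, 402 and 375 RPKM against 117, 139 and 111 RPKM (log2FC 1.65, SE 0.132), as were *Krt19* (log2FC 1.36, SE 0.123) and, by less, *Krt8* (log2FC 0.44, SE 0.0982), which were highest in tracheal non-basal and airway CD24hi cells, and *Krt18* was at 272, 310.2 and 262 RPKM against 338, 351 and 299 RPKM with an edgeR adjusted p of 0.128.

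The genes of the club list were mostly lower in BSCs, 19 of 25 tested, with 4 higher and 2 not past the test and a median of -1.66. Beside secretory genes the list holds others, such as the simple keratins given above. *Krt7*, *Krt8* and *Krt19* were among its 4 higher members, and *Krt18* was among those not past the test. *Scgb3a1* was at 388, 334 and 244 RPKM in BSCs and 7095, 6598 and 8755 RPKM in airway CD24lo cells (log2FC -4.54, SE 0.273). It was higher still in tracheal non-basal cells, at 18330 ± 1655 RPKM (SD, n = 3), whereas *Scgb1a1* there, at 60180 ± 3371 RPKM, stayed below the airway CD24lo level. *Hp*, which encodes the haemoglobin-binding haptoglobin, was at 13.9, 9.51 and 9.26 RPKM against 3193, 4451 and 4122 RPKM (log2FC -8.49, SE 0.275, edgeR adjusted p 1.29e-13). The resistin-like gene *Retnla* was at 1.76, 1.43 and 1.56 RPKM against 529, 861 and 616 RPKM and the cholecystokinin receptor *Cckar* at 0.612, 0.566 and 0.453 RPKM against 98.4, 141 and 148 RPKM. No library of one group reached the other group for these genes. *Hp* and *Retnla* separated the lung from the tracheal secretory fraction as well, at 174 ± 18.7 and 33.9 ± 22.01 RPKM in tracheal non-basal cells (SD, n = 3). *Kdr*, a VEGF receptor, was even across the airway CD24lo libraries, at 42.5, 43.7 and 42.2 RPKM, unlike the endothelial markers, and BSCs held 3 reads of it. The mean of *Kdr* was 18.5 ± 5.76 RPKM in EpCAM-negative cells (SD, n = 3), below that of airway CD24lo cells.

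Enzymes of xenobiotic metabolism, the textbook trait of club cells, were divided. Of 53 tested, 30 were lower in BSCs, 11 higher and 12 did not pass, with a median of -0.706. By library size alone 24 were lower and 19 higher, with a median of -0.321. The aldehyde dehydrogenase *Aldh1a1* was at 760, 641 and 547 RPKM against 1635, 2153 and 2375 RPKM (log2FC -1.66, SE 0.1796), the carbonyl reductase *Cbr2* at 6821, 5765 and 5499 RPKM against 14420, 18570 and 14940 RPKM (log2FC -1.41, SE 0.171), and the microsomal glutathione transferase *Mgst1* at 115, 99.2 and 91.1 RPKM against 1522, 1977 and 2271 RPKM (log2FC -4.24, SE 0.159). *Gstt1* (-4.11) and *Fmo1* (-4.21) were lower by a similar factor to *Mgst1*. The cytochrome *Cyp1b1* was lower too, at 0.0333, 0.0431 and 0.03304 RPKM against 9.09, 10.5 and 12.3 RPKM, and had 9.82 ± 0.177 RPKM in EpCAM-negative cells (SD, n = 3). In the other direction stood the glucuronosyltransferase *Ugt2b34* at 85.3, 74.05 and 78.3 RPKM against 1.42, 1.997 and 1.66 RPKM (log2FC 5.55, SE 0.166), the alcohol dehydrogenase *Adh7* at 599, 520.1 and 488 RPKM against 60.9, 69.7 and 88.1 RPKM (log2FC 2.88, SE 0.163) and the glutathione transferase *Gsto1* at 2747, 2569 and 2525 RPKM against 818, 924 and 1074 RPKM (log2FC 1.48, SE 0.135). *Gsto1* was higher still in tracheal non-basal cells, at 7818 ± 469.9 RPKM, and *Adh7* was at 429.8 ± 53.2 RPKM there (SD, n = 3). *Ugt2b34* instead was highest in BSCs, with 23.7 ± 3.18 RPKM in the non-basal cells. Of the 30 lower genes 8 were highest in airway CD24lo cells, 8 in airway CD24hi cells, 6 in tracheal non-basal cells, 5 in EpCAM-negative cells, *Fmo1* among them, and 3 in alveolar cells, *Gstt1* among them. *Ces1d*, a carboxylesterase, was at 1211, 1059 and 1023 RPKM against 905, 1171 and 1200 RPKM and did not pass the test.

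The proteins of airway defence and mucus followed the secretory genes only in part, with 16 of 28 lower in BSCs, 7 higher and 5 not past the test (median -1.27). *Bpifb1*, an antimicrobial lipid-binding protein, was at 35.6, 30.9 and 34.2 RPKM against 1537, 1213 and 1708 RPKM (log2FC -5.47, SE 0.261). The airway mucin *Muc5b* was at 7.04, 5.35 and 3.83 RPKM against 81.1, 96.8 and 102 RPKM (log2FC -4.11, SE 0.2798), and the immunoglobulin transporter *Pigr* at 26.8, 18.7 and 14.1 RPKM against 161, 199 and 246 RPKM (log2FC -3.35, SE 0.216). All 3 were highest in tracheal non-basal cells, and of the 16 lower genes 7 were highest in alveolar cells, 6 in tracheal non-basal cells and 3 in airway CD24lo cells. *Bpifa1*, the leading transcript of the tracheal surface, did not pass the test, at 18170, 12370 and 10110 RPKM in BSCs, where replicate 1 was highest, and 7774, 8106 and 10880 RPKM in airway CD24lo cells (edgeR adjusted p 0.0828, and 0.0455 without BSC replicate 3). It was at 136800 ± 1881 RPKM in tracheal non-basal cells (SD, n = 3), and the median defence gene stood at 9.08%, 9.04% and 5.63% of the non-basal mean in the BSC libraries. The hydrogen peroxide-generating oxidase *Duox1* and its maturation factor *Duoxa1* ran the other way. *Duox1* was at 9.61, 9.76 and 10.5 RPKM in BSCs against 0.0874, 0.0932 and 0.0219 RPKM (log2FC 7.13, SE 0.289), and *Duoxa1* at 18.9, 17.4 and 17.2 RPKM against 0.0615, 0.394 and 0.538 RPKM (log2FC 5.79, SE 0.313). Both were lower in tracheal non-basal cells too, at 0.571 ± 0.0852 and 1.23 ± 0.161 RPKM (SD, n = 3). *Defb1*, a beta-defensin, was at 112, 117 and 113 RPKM against 6.93, 13.2 and 9.3 RPKM (log2FC 3.54, SE 0.294).

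Ion and water transport genes, which set the liquid layer over the airway, were lower in BSCs in 17 of 25, higher in 7 and not past the test in 1 (median -0.781, -1.2 without BSC replicate 1). The subunits of the epithelial sodium channel ENaC did not go together. *Scnn1a* was nearly level at 71.3, 81.8 and 82.1 RPKM against 101, 122 and 96 RPKM (log2FC -0.44, SE 0.0984), whereas *Scnn1b* was at 0.614, 0.562 and 0.738 RPKM against 126, 199 and 179.9 RPKM (log2FC -8.04, SE 0.236) and *Scnn1g* at 1.32, 0.904 and 1.35 RPKM against 40.2, 65.3 and 58.2 RPKM (log2FC -5.51, SE 0.228). Both had their highest mean of the 6 populations in airway CD24lo cells, and *Scnn1b* was at 3.72 ± 0.266 RPKM in tracheal non-basal cells (SD, n = 3). The chloride channel *Cftr* was low in both, at 0.329, 0.263 and 0.237 RPKM against 2.497, 3.395 and 2.72 RPKM (log2FC -3.37, SE 0.1497), and the cotransporter *Slc12a2* was at 9.104, 10.2 and 10.96 RPKM against 48.7, 65.8 and 82.9 RPKM (log2FC -2.71, SE 0.185). Both were among the 7 lower genes with their highest mean in alveolar cells. Water channels differed by member: *Aqp3*, a basal cell channel, was at 1118, 1022 and 1030 RPKM against 60.8, 90.8 and 55.3 RPKM (log2FC 3.94, SE 0.1904), *Aqp5* at 431, 401 and 386 RPKM against 179.9, 236 and 184 RPKM (log2FC 1.02, SE 0.152), and *Aqp1*, a channel of the vessels that was highest in EpCAM-negative cells, at 0.0412, 0.1201 and 0.164 RPKM against 95.4, 32.2 and 39.2 RPKM.

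Genes of the NRF2 antioxidant response were lower in BSCs in 17 of 25, higher in 3 and not past the test in 5 (median -0.942), and 8 were higher by library size alone. Catalase (*Cat*) was at 65.6, 64.5 and 61.7 RPKM against 260.1, 317 and 318 RPKM (log2FC -2.22, SE 0.102), the quinone reductase *Nqo1* at 11, 7.44 and 6.68 RPKM against 38.6, 33.7 and 41.3 RPKM (log2FC -2.18, SE 0.205) and haem oxygenase *Hmox1* at 13.8, 14.04 and 13.6 RPKM against 37.9, 70.2 and 49.2 RPKM (log2FC -1.92, SE 0.215). The regulator itself, *Nfe2l2*, was at 138, 178 and 164 RPKM against 121, 176 and 137 RPKM, and its inhibitor *Keap1* at 11.8, 12.5 and 11.7 RPKM against 9.76, 11.8 and 10.7 RPKM, neither past the test. *G6pdx*, the first enzyme of the pentose phosphate pathway, was higher in BSCs (log2FC 1.47, SE 0.108), as was *Gclm* (log2FC 0.99, SE 0.0785), the modifier subunit of glutathione synthesis, while its catalytic partner *Gclc* was lower (log2FC -1.28, SE 0.117). *Cat*, *Hmox1* and *Gclc* were highest in alveolar cells and *Nqo1* in airway CD24hi cells, and 2 of the 17 lower genes were highest in airway CD24lo cells.

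Genes of complement and antigen presentation were lower in BSCs or did not pass, and chemokines and cytokines went both ways. Of 27 genes of complement and antigen presentation none was higher, 17 were lower and 10 did not pass (median -0.906). Without airway CD24lo replicate 1, 13 were lower and 1 was higher (median -0.634). The central complement component *C3* was at 25.2, 22.8 and 22.4 RPKM against 165, 191 and 214 RPKM (log2FC -3.02, SE 0.157) and at 1093 ± 14.8 RPKM in EpCAM-negative cells (SD, n = 3), where 9 of the 17 lower genes were highest; 6 more were highest in alveolar cells. MHC class I heavy chains differed little, with *H2-D1* at 148, 135 and 136 RPKM against 208, 150.1 and 161 RPKM and not past the test. Of 29 chemokine and cytokine genes, 15 were lower and 8 higher (median -1.02, -0.654 without airway CD24lo replicate 2). Without airway CD24lo replicate 1, 12 were lower and 7 higher (median -0.715). Of the 15 lower, 9 were highest in EpCAM-negative cells and 3 in alveolar cells. *Cxcl15*, the lung epithelial chemokine also called lungkine, was at 464, 476 and 561 RPKM in airway CD24lo and 0.548, 0.351 and 0.226 RPKM in BSC libraries (log2FC -10.37, SE 0.273), and was at 5357 ± 386 RPKM in alveolar cells (SD, n = 3). The interleukin-1 family divided. *Il1a* (log2FC 2.34, SE 0.326), *Il1b* (log2FC 1.13, SE 0.338) and the receptor antagonist *Il1rn* (log2FC 2.99, SE 0.422) were higher in BSCs. *Il33*, an alarmin of the same family, was lower at 0.0437, 0.0849 and 0.0868 RPKM against 6.15, 2.49 and 4.997 RPKM and was highest in alveolar cells, at 176 ± 13.03 RPKM (SD, n = 3).

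Notch signalling, by which a ligand on one airway cell directs its neighbour towards the secretory fate, had no common direction. Among 27 tested genes, 11 were higher, 9 lower and 7 not past the test (median 0.0658). The ligand *Jag2* was at 86.99, 98.9 and 104 RPKM in BSCs against 15.8, 16.5 and 9.17 RPKM (log2FC 2.80, SE 0.237, edgeR adjusted p 1.52e-08) and the ligand *Dll1* at 18.3, 22.6 and 25.7 RPKM against 7.01, 6.16 and 3.86 RPKM (log2FC 1.96, SE 0.2698). *Jag1* did not pass, at 20.5, 23.9 and 24.6 RPKM against 24.1, 21.4 and 20.4 RPKM. Of the receptors, *Notch1* was higher in BSCs at 29.3, 28.4 and 27.96 RPKM against 9.88, 10.1 and 8.698 RPKM (log2FC 1.58, SE 0.119), while *Notch2* (log2FC -0.64, SE 0.121) and *Notch3* (log2FC -1.38, SE 0.222) were lower. *Notch2*, the main receptor of the secretory fate, was at 13.9, 14.8 and 15.5 RPKM against 17.7, 24.9 and 26.2 RPKM and reached 43.5 ± 2.15 RPKM in tracheal non-basal cells (SD, n = 3). The feedback target *Nrarp* was at 3.13, 3.58 and 4.23 RPKM against 29.4, 30.1 and 35.9 RPKM (log2FC -3.12, SE 0.168), with no overlap. *Hes1* was at 76.1, 233 and 189.9 RPKM in BSCs, where replicate 1 was low, and 247, 270.4 and 258 RPKM in airway CD24lo cells, and did not pass (edgeR adjusted p 0.122, and 0.0404 without BSC replicate 2). *Hey1* was slightly higher in BSCs (log2FC 0.40, SE 0.123), which did not pass without BSC replicate 1 or airway CD24lo replicate 2. The endothelial ligand and receptor *Dll4* and *Notch4* were also lower, at 5.79, 1.79 and 1.83 and 5.83, 2.31 and 1.83 RPKM in the airway CD24lo libraries against 0.0247, 0.0561 and 0.0409 and 0.0861, 0.1297 and 0.0941 RPKM. Both were highest in EpCAM-negative cells, as were *Notch3* and 6 of the 9 lower genes in all.

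Wnt genes, which drive self-renewal in many epithelia, were higher in BSCs in 24 of 40, lower in 12 and not past the test in 4 (median 0.654). Ligands and receptors were both among the higher genes. *Wnt4* was at 91.2, 97.8 and 98.2 RPKM against 11.1, 10.3 and 7.26 RPKM (log2FC 3.32, SE 0.172), *Wnt7b* at 19.2, 27.1 and 26.4 RPKM against 4.59, 4.69 and 3.86 RPKM (log2FC 2.47, SE 0.162) and *Wnt10a* at 17.2, 19.4 and 19.6 RPKM against 0.0939, 0.1501 and 0.117 RPKM (log2FC 7.25, SE 0.385), the last from 7 airway CD24lo reads. Within the trachea they differed: *Wnt7b* was at 23.1 ± 0.776 RPKM in tracheal non-basal cells, close to BSCs, whereas *Wnt4* and *Wnt10a* were at 18.4 ± 1.89 and 1.72 ± 0.566 RPKM (SD, n = 3). The R-spondin receptors *Lgr4* (log2FC 2.81, SE 0.0983) and *Lgr6* (log2FC 2.34, SE 0.147) were higher in BSCs, *Lgr6* at 64.1, 61.95 and 61.4 RPKM against 8.97, 14.6 and 13.6 RPKM, as was *Wls* (log2FC 1.35, SE 0.127), which carries Wnt proteins to the surface. *Axin2*, *Nkd1* and *Notum*, feedback targets of the canonical pathway, were lower in BSCs: *Axin2* was at 0.0868, 0.1297 and 0.106 RPKM against 1.71, 0.876 and 0.622 RPKM (log2FC -3.32, SE 0.361), *Nkd1* at 0.332, 0.279 and 0.241 RPKM against 11.9, 4.32 and 4.88 RPKM (log2FC -4.63, SE 0.451) and *Notum* at 0.0704, 0.0137 and 0.0559 RPKM against 3.87, 3.35 and 2.96 RPKM (log2FC -6.10, SE 0.426). Of the 24 higher Wnt genes, 12 were highest in BSCs and 7 in EpCAM-negative cells. Of the 12 lower Wnt genes, 8 were highest in EpCAM-negative cells, 2 in alveolar cells and 2 in airway CD24hi cells. In EpCAM-negative cells *Axin2* was at 14.8 ± 1.65 RPKM and *Notum* at 24.6 ± 2.28 RPKM (SD, n = 3).

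Of the EGF family receptors, *Egfr*, *Erbb2* and *Erbb3* were higher in BSCs and *Erbb4* did not pass. Their ligands divided, and of the 15 genes 7 were higher, 4 lower and 4 not past the test (median 0.538). *Egfr* was at 27.7, 30.8 and 31.9 RPKM against 3.19, 3.42 and 2.97 RPKM (log2FC 3.24, SE 0.131, edgeR adjusted p 1.82e-12), while *Erbb2* (log2FC 0.61, SE 0.0923) and *Erbb3* (log2FC 0.54, SE 0.112) differed by less than 2-fold. Among ligands, the neuregulin *Nrg2* was at 16.9, 17.98 and 20.02 RPKM against 1.39, 2.21 and 1.74 RPKM (log2FC 3.36, SE 0.207) and *Hbegf* at 183, 201 and 204 RPKM against 45.2, 61.3 and 40.5 RPKM (log2FC 2.00, SE 0.153). Amphiregulin (*Areg*) was lower in BSCs at 3.7, 6.57 and 8.95 RPKM against 58.6, 40.05 and 29.7 RPKM (log2FC -2.74, SE 0.2601), betacellulin (*Btc*) was at 0.8504, 0.452 and 0.785 RPKM against 5.09, 10.5 and 9.33 RPKM (log2FC -3.57, SE 0.322), and *Tgfa* did not pass, at 8.53, 10.3 and 10.8 RPKM against 7.49, 10.3 and 10.3 RPKM. The airway CD24lo values of *Areg* and *Btc* thus exceeded every BSC value, and those of *Egfr* lay below every BSC value. *Areg* was highest in airway CD24hi cells, and *Erbb2* and *Erbb3* in tracheal non-basal cells.

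In the FGF pathway 6 of 20 genes were higher, 11 lower and 3 not past the test, with a median of -1.06 that was -0.499 in a fit of the 6 libraries alone. The share of higher genes was close to the 28.9% of all genes. The epithelial receptor *Fgfr2* was at 102, 99.4 and 101 RPKM against 48.9, 64.3 and 55.2 RPKM (log2FC 0.85, SE 0.105), *Fgfr3* was likewise higher (log2FC 0.71, SE 0.125) and *Fgfr1* lower (log2FC -1.80, SE 0.118). *Dusp6*, a phosphatase induced by ERK signalling, was at 143, 216 and 194 RPKM against 22.02, 27.7 and 26.4 RPKM (log2FC 2.86, SE 0.171), and the feedback inhibitor *Spry2* was higher (log2FC 1.05, SE 0.1297) while *Spry4* was lower (log2FC -1.93, SE 0.404). The mesenchymal ligands *Fgf7* and *Fgf10* were lower in BSCs, with 4 and 1 reads against 150 and 86. Both were highest in EpCAM-negative cells, as were *Fgfr1*, *Spry4* and 7 of the 11 lower genes in all. *Fgfr2* and *Spry2* were highest in alveolar cells.

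Of 33 genes of the BMP and TGF-beta pathways, 18 were higher in BSCs, 9 lower and 6 did not pass (median 0.491). The BMP targets *Id1*, *Id2* and *Id3*, which hold back differentiation factors, were all higher: *Id1* was at 277, 296 and 298 RPKM against 51.6, 26.9 and 26.7 RPKM (log2FC 3.04, SE 0.211), and *Id2* and *Id3* had log2 fold changes of 1.37 (SE 0.116) and 1.65 (SE 0.288). The ligand *Bmp7* was at 9.09, 10.1 and 9.899 RPKM against 1.08, 1.25 and 0.643 RPKM (log2FC 3.27, SE 0.318), and *Bmp4* was lower at 5.29, 6.74 and 7.73 RPKM against 13.8, 14.03 and 11.3 RPKM (log2FC -0.99, SE 0.197). The type I receptors differed in sign, *Bmpr1a* being higher (log2FC 1.22, SE 0.192) and *Bmpr1b* lower (log2FC -1.01, SE 0.204). Every *Id1* value in BSCs lay above every airway CD24lo value. *Id3*, *Bmp7* and *Bmp4* were highest in EpCAM-negative cells and *Id2* in alveolar cells. Of the 18 higher genes 8, and of the 9 lower genes 7, were highest in EpCAM-negative cells.

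**Figure D4:**
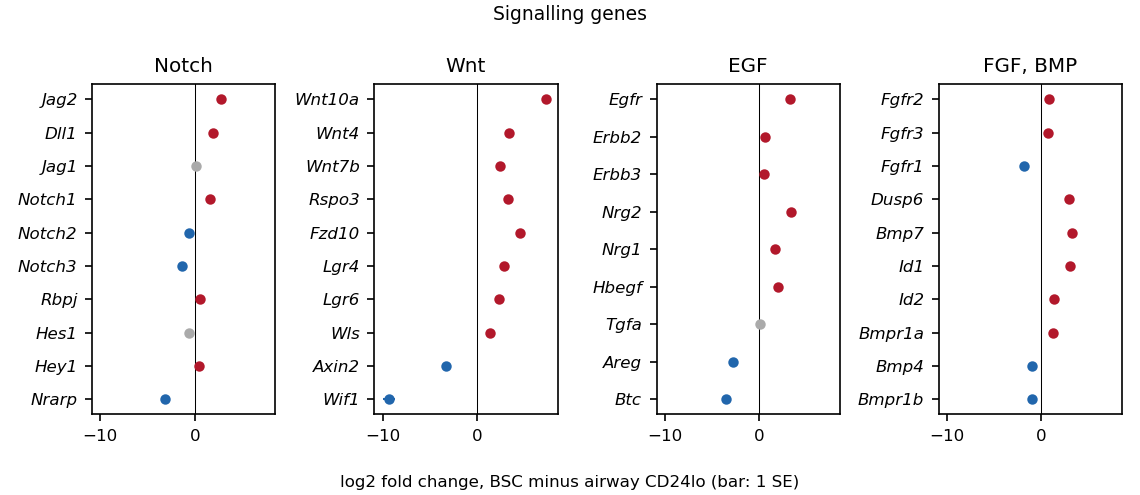
Log2 fold change (BSC minus airway CD24lo) of genes of the Notch, Wnt, EGF and of the FGF and BMP pathways; bars show 1 SE and are mostly smaller than the points. Red points were higher and blue points lower in BSCs at an adjusted p under 0.05, and grey points did not pass; the log2 fold change of *Wnt10a* was 7.25 and that of *Axin2* -3.32.

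Transcription factors of airway lineages divided evenly, with 17 of 39 higher in BSCs, 17 lower and 5 not past the test (median -0.281, 0.0855 by library size alone, -0.122 without BSC replicate 1 and -0.104 without airway CD24lo replicate 1). *Foxa2* had the smallest adjusted p of all genes tested, 2.31e-15 by edgeR, with 0.548, 0.572 and 0.544 RPKM in BSCs against 28.7, 25.8 and 29.9 RPKM (log2FC -5.66, SE 0.117). Its relative *Foxa1* went the other way, at 154, 159.7 and 156 RPKM against 52.1, 64.8 and 56.4 RPKM (log2FC 1.44, SE 0.103). Both encode pioneer factors of endoderm, and in tracheal non-basal cells they stood at 8.95 ± 0.525 and 135 ± 3.502 RPKM (SD, n = 3). *Elf5*, an ETS factor, was at 1.94, 1.17 and 1.13 RPKM against 37.4, 53.8 and 59.04 RPKM (log2FC -5.14, SE 0.241). *Sox2*, the factor of the conducting airways, was higher in BSCs at 78.9, 88.5 and 86.5 RPKM against 35.9, 43.8 and 45.9 RPKM (log2FC 1.02, SE 0.159), and *Nkx2-1*, the factor of lung and tracheal identity, was lower at 47.6, 51.8 and 52.1 RPKM against 83.8, 87.7 and 76.7 RPKM (log2FC -0.71, SE 0.103). The basal factors *Sox15* at 17.02, 14.4 and 14.3 RPKM against 0.647, 0.518 and 0.303 RPKM (log2FC 4.91, SE 0.2901) and *Snai2* at 15.5, 20.8 and 19.2 RPKM against 2.61, 3.66 and 1.94 RPKM (log2FC 2.75, SE 0.2302) joined *Trp63*. *Sox21* (log2FC 3.38, SE 0.141) and *Klf5* (log2FC 2.56, SE 0.137) were also higher, and these were nearly as high in tracheal non-basal cells, at 49.9 ± 5.97 and 164 ± 14.4 RPKM (SD, n = 3). *Sox17* had 0 reads in BSCs and was at least 521-fold lower; it is an endothelial as well as an endodermal factor and was at 7.94, 3.04 and 3.05 RPKM in the airway CD24lo libraries, highest in replicate 1. *Foxa2* was highest in airway CD24hi cells, *Nkx2-1* in alveolar cells and *Sox17* in EpCAM-negative cells, and 1 of the 17 lower factors was highest in airway CD24lo cells.

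Factors that pattern the body axis and the branchial region differed in both directions. Of 35 tested, 18 were higher in BSCs, 9 lower and 8 did not pass (median 0.63), among the last *Barx1*, which had 0 reads in both groups. *Isl1*, a LIM homeobox factor, was at 16.2, 14.2 and 14.4 RPKM against 0.0365, 0.0777 and 0.319 RPKM (log2FC 6.78, SE 0.317), and *Pitx1*, a paired-type homeobox factor, at 5.97, 5.87 and 5.64 RPKM against 0.188, 0.1203 and 0.09405 RPKM (log2FC 5.38, SE 0.256). *Pax9*, a factor of the pharyngeal pouches, was at 42.5, 55.5 and 54.8 RPKM against 6.29, 8.28 and 7.56 RPKM (log2FC 2.79, SE 0.162). Anterior Hox genes were higher as well: *Hoxa3* at 6.02, 5.82 and 5.36 RPKM against 1.05, 0.656 and 0.7696 RPKM (log2FC 2.78, SE 0.269), *Hoxb3* at 10.5, 10.1 and 10.2 RPKM against 1.76, 1.64 and 1.52 RPKM (log2FC 2.65, SE 0.147) and *Hoxb2* at 14.1, 14.1 and 13.1 RPKM against 3.105, 2.59 and 2.47 RPKM (log2FC 2.33, SE 0.1601). Further along the cluster, *Hoxa5* was lower in BSCs, at 2.82, 3.02 and 2.92 RPKM against 8.49, 2.72 and 4.42 RPKM (log2FC -0.85, SE 0.3295). This call was not secure: it was lost without airway CD24lo replicate 1 (log2FC -0.28, edgeR adjusted p 0.475) and without any single BSC library. It was also lost by library size alone, in limma voom (adjusted p 0.0531), in the fits of the 6 libraries and after removal of the gene-length trend. *Hoxb5* did not pass, at 1.29, 0.933 and 0.834 RPKM against 1.94, 0.932 and 0.911 RPKM. In tracheal non-basal cells *Isl1*, *Pax9*, *Hoxa3* and *Hoxb3* were at 19.6 ± 0.428, 41.6 ± 3.25, 5.09 ± 0.593 and 9.34 ± 0.579 RPKM (SD, n = 3), near the BSC levels, while in the other airway fraction of the lung, CD24hi, they were at 0.0197 ± 0.0171, 0.857 ± 0.0515, 0.476 ± 0.335 and 0.536 ± 0.178 RPKM. The EpCAM-negative cells of the lung did not follow the lung epithelium: *Hoxa3*, *Hoxb3* and *Hoxb2* were at 10.3 ± 1.46, 14.1 ± 1.19 and 16.8 ± 0.358 RPKM there (SD, n = 3), above the BSC levels, while *Isl1* and *Pax9* were at 0.0418 ± 0.0487 and 0.0504 ± 0.0456 RPKM. Of the 18 higher factors 8 were highest in EpCAM-negative cells and 6 in BSCs, and of the 9 lower factors 7 were highest in EpCAM-negative cells. *Tbx4* and *Tbx5*, T-box factors of lung mesenchyme, had 0 reads in BSCs and were at least 348-fold and 116-fold lower, with 4.13, 2.08 and 2.79 RPKM for *Tbx4* in airway CD24lo cells and 70.2 ± 8.35 RPKM in EpCAM-negative cells.

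**Figure D5:**
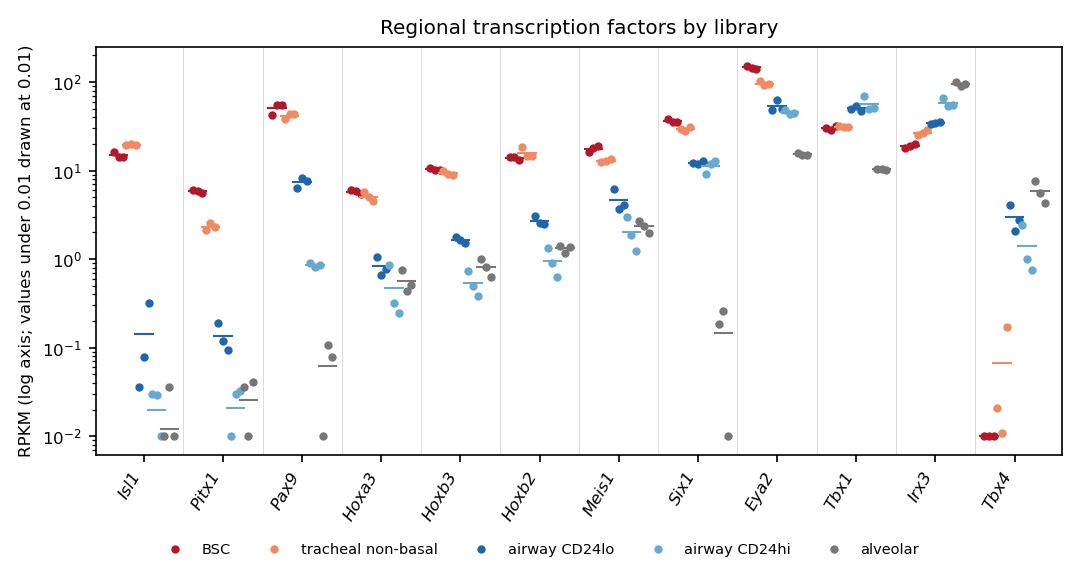
Level of 12 regional transcription factors in each library (points, RPKM on a log axis; values under 0.01 are drawn at 0.01; short lines, means) for 5 epithelial populations. For *Isl1*, *Pax9*, *Hoxa3*, *Hoxb3* and *Hoxb2* the BSC and tracheal non-basal libraries lay above every library of the 3 lung epithelial populations plotted; *Tbx4* had no BSC read.

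Cell cycle genes were higher in BSCs. All 28 mitosis genes tested were higher, with a median of 2.72, against 28.9% of all genes. *Mki67*, the proliferation marker Ki-67, was at 14.1, 12.2 and 12.7 RPKM against 0.731, 1.64 and 1.15 RPKM (log2FC 3.47, SE 0.322, edgeR adjusted p 4.77e-08), and the topoisomerase *Top2a* at 20.3, 17.6 and 18.02 RPKM against 3.39, 2.45 and 2.71 RPKM (log2FC 2.71, SE 0.218). Tracheal non-basal cells lay between the groups, with *Mki67* at 4.33 ± 0.0244 RPKM (SD, n = 3). Of 30 DNA replication genes, 28 were higher and 2 did not pass (median 0.94), and 1 was lower without airway CD24lo replicate 3; the helicase subunit *Mcm5* was at 8.87, 6.63 and 5.73 RPKM against 1.53, 1.81 and 2.12 RPKM (log2FC 1.97, SE 0.217) and the sliding clamp *Pcna* at 42.2, 46.3 and 46.4 RPKM against 29.2, 38.3 and 39.1 RPKM (log2FC 0.34, SE 0.0985). Regulators of G1 were less one-sided, 9 of 22 higher and 5 lower (median 0.256). *Ccnd2* was at 59.98, 65.5 and 63.6 RPKM against 11.4, 10.4 and 10.6 RPKM (log2FC 2.54, SE 0.0784) and *Myc* at 48.2, 80.7 and 90.8 RPKM against 15.6, 29.2 and 15.2 RPKM (log2FC 1.87, SE 0.271), while the kinase inhibitor *Cdkn1c* was lower at 4.101, 4.78 and 5.16 RPKM against 54.2, 38.4 and 39.7 RPKM (log2FC -3.24, SE 0.1398). *Myc* was at 7.97 ± 2.81 RPKM in tracheal non-basal cells (SD, n = 3), the lowest of these 3 populations. *Pcna* was highest in alveolar cells and *Cdkn1c* in airway CD24hi cells.

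The study's question concerned the repair of double-strand breaks by nonhomologous end joining (NHEJ), which rejoins ends without a template. The paper reported higher expression of NHEJ genes in BSCs than in alveolar cells, and used *Prkdc*-mutant mice as further evidence. Airway CD24lo cells are a different comparator, so the values below do not test that claim. The 12 core NHEJ genes had no common direction, with 3 higher in BSCs, 3 lower and 6 not past the test and a median of -0.0112. The kinase *Prkdc* (DNA-PKcs) was at 3.905, 3.14 and 3.27 RPKM against 1.88, 1.84 and 2.29 RPKM (log2FC 0.78, SE 0.115, edgeR adjusted p 1.32e-05), the Ku80 gene *Xrcc5* at 29.5, 26.5 and 25.9 RPKM against 15.3, 17.6 and 19.2 RPKM (log2FC 0.65, SE 0.0925, edgeR adjusted p 8.18e-06) and the accessory factor *Aplf* at 3.09, 3.25 and 3.15 RPKM against 1.94, 2.22 and 1.69 RPKM (log2FC 0.70, SE 0.172). Lower were the nuclease Artemis (*Dclre1c*, log2FC -0.66, SE 0.1604), the ligase partner *Xrcc4* (log2FC -0.70, SE 0.157) and *Paxx* (log2FC -0.78, SE 0.118). *Xrcc4* was highest in airway CD24hi cells and *Paxx* in alveolar cells. *Lig4*, the ligase itself, was at 2.54, 2.97 and 2.63 RPKM against 2.17, 2.55 and 2.82 RPKM, and the Ku70 gene *Xrcc6* at 10.9, 9.18 and 8.99 RPKM against 9.98, 10.4 and 10.6 RPKM, both within the spread. By library size alone 7 were higher and 1 lower, and the median moved to 0.367, close to the shift of all genes.

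Genes of homologous recombination, the template-directed repair of S and G2 phase, were higher in BSCs in 16 of 26, lower in 5 and not past the test in 5 (median 0.794). *Brca1* was at 1.72, 1.305 and 1.22 RPKM against 0.319, 0.281 and 0.329 RPKM (log2FC 2.19, SE 0.249). The end-resection factor *Rbbp8* (CtIP), the most abundant of the leading genes, was at 19.4, 23.8 and 24.4 RPKM against 6.28, 7.98 and 8.08 RPKM (log2FC 1.60, SE 0.153). The mitosis genes above moved in the same direction, and their part in this list was not tested. Damage signalling and p53 genes were higher in 13 of 24 and lower in 3 (median 0.432); 1 was lower without replicate 1 of either group. *Trp53* was at 31.6, 33.2 and 34.01 RPKM against 19.5, 16.9 and 13.5 RPKM (log2FC 0.98, SE 0.148), *Atm* at 5.74, 4.698 and 5.18 RPKM against 2.72, 3.03 and 3.33 RPKM (log2FC 0.78, SE 0.1297), and the p53 targets *Sesn1* (log2FC 1.43, SE 0.0904) and *Pmaip1* (log2FC 2.10, SE 0.215) were higher. *Cdkn1a* (p21) did not pass, at 42.9, 45.7 and 49.1 RPKM against 53.5, 39.1 and 31.9 RPKM (edgeR adjusted p 0.433, and 0.0304 without airway CD24lo replicate 1), and *Gadd45a* was lower at 13.7, 17.4 and 19.5 RPKM against 33.3, 53.7 and 33.1 RPKM (log2FC -1.25, SE 0.171) and highest in airway CD24hi cells.

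Genes that respond within minutes to handling differed between the sorts. The sorts used different enzymes, but organ, mice and population changed with them, and the part of each was not tested. Of 23 immediate early and heat shock genes, 15 were higher in BSCs, 1 was lower and 7 did not pass (median 0.771). Among the 15 higher genes, 10 were highest in BSCs, 4 in EpCAM-negative lung cells and 1 in tracheal non-basal cells. *Fosb* was at 1115, 1498 and 1499 RPKM against 319, 300.2 and 352 RPKM (log2FC 2.08, SE 0.178) and *Fos* at 2850, 3442 and 3416 RPKM against 1404, 1383 and 1432 RPKM (log2FC 1.20, SE 0.15). *Hspa1b*, an inducible heat shock gene, was at 113, 124 and 131 RPKM against 102, 182 and 141 RPKM and did not pass. In tracheal non-basal cells, which were released like the BSCs, *Fosb* was at 769 ± 203 RPKM and *Fos* at 2103 ± 357 RPKM (SD, n = 3). *Myc*, *Hbegf*, *Dusp6* and the *Id* genes, named above, also respond to stimuli within hours, and the part of cell release in their differences was not tested.

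The 12 largest differences in each direction were taken among genes with at least 10 CPM over the 6 libraries and no overlap. In BSCs they included the gene of a membrane protease and genes of the serpin family. *Tmprss11a*, a transmembrane serine protease at chr5:86410410-86469175 (mm10), was at 16.7, 16.6 and 16.8 RPKM in BSCs and had no airway CD24lo read, at least 439-fold higher. The serpins *Serpinb2* at 19.8, 39.3 and 44.4 RPKM and *Serpinb10* at 16.9, 22.9 and 23.1 RPKM lie side by side at chr1:107500892-107525600 and chr1:107528994-107560742. They had 1 and 13 reads in all airway CD24lo libraries, and *Serpinb2* was lowest in BSC replicate 1. The retinol dehydrogenase gene *Dhrs9* and the membrane gene *Cwh43* had 4 and 3 such reads against 4526 and 3164 in BSCs. The zinc finger factor *Osr2* was at 68.8, 76.3 and 69.05 RPKM against 0.538, 0.287 and 0.471 RPKM (log2FC 7.35, SE 0.2398), and was as high in tracheal non-basal cells, at 72.1 ± 4.39 RPKM (SD, n = 3). *Clca3b*, of the calcium-activated chloride channel regulator family, was at 50.95, 58.1 and 48.6 RPKM against 0.139, 0.505 and 0.348 RPKM (log2FC 7.32, SE 0.246). *Dsg3*, *Krt75*, *Krt4*, *Wnt10a* and *Xist* completed the 12, the last through BSC replicates 2 and 3.

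In the lower direction the 12 genes were *Sftpc*, *Cldn18* and 10 genes that are mostly known from vessels and stroma. *Cdh5*, *Cldn5*, *Adgrl4* and *Ptprb* are endothelial genes, and *Mfap4*, *Sparcl1* and *Scn7a* are known from stroma. *Kdr*, also a gene of vessels, was even across the airway CD24lo libraries and above its EpCAM-negative mean, as given above. *Cldn5*, *Adgrl4*, *Ptprb*, *Mfap4*, *Scn7a*, *Sparcl1* and *Dpep1* were highest in airway CD24lo replicate 1, as *Cdh5* was. *Mfap4*, for example, was at 74.7, 34.7 and 32.6 RPKM. *C6*, a terminal complement component, was instead even, at 24.4, 31.97 and 32.5 RPKM, with 0 BSC reads and at least 2998-fold lower in BSCs. Its mean was 76.7 ± 0.593 RPKM in alveolar cells, 3.62 ± 0.687 RPKM in airway CD24hi cells and 0.00764 ± 0.0132 RPKM in tracheal non-basal cells (SD, n = 3). The bounds for *Sparcl1*, *Scn7a*, *Mfap4*, *Cldn5*, *Adgrl4* and the dipeptidase gene *Dpep1* ran from at least 1106-fold to at least 6183-fold, all with 0 BSC reads.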

How the data were processed

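RNA was sequenced from 6 sorted mouse populations, 3 libraries each. With Rsubread and featureCounts, the authors mapped the reads to mm10 and assigned them to Entrez genes (bcl2fastq 1.8.4 per the labels). They deposited the raw read count and length of 27179 genes; the series-wide table with the same counts was left aside. Symbols and positions were looked up in the GRCm38.p6 gene list of NCBI, where 25275 identifiers were found, and 0 rows named no gene. Organ, gate and mouse number were taken from the labels; the series' design text describes the animals differently.

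Everything after the counts was computed in R 4.3.3. A gene was tested (17989 were) if at least 3 libraries had more than 0.2 CPM. TMM factors ran from 1.167 to 1.199 for the BSC libraries and from 0.871 to 0.9729 for the airway CD24lo libraries. The test was the quasi-likelihood F-test of edgeR 4.0.16 with all 18 libraries in the model, Benjamini-Hochberg adjustment and a threshold of 0.05; the study's limma voom was kept as an alternative. RPKM used TMM-scaled library sizes and the deposited gene length. For genes with no read in one group, the bound counts 3 reads over that group and covers counting error only. Replicates are different mice, and no pair was alike within counting noise.

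Members and the 39 gene lists were chosen with earlier results of these data known. Genes were named as markers or gate genes, as the 12 largest differences in each direction among called genes with at least 10 CPM and no overlap, as up to 4 leading members per list and direction with at least 1 RPKM in the higher group, and for a defining role in a list or for not passing the test; some genes that this rule names are not reported here.

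The alternatives were RLE factors, library size alone, DESeq2 1.42.0, voom in limma 3.58.1, other filters, a fit of the 6 libraries with and without a replicate block, leaving out each library, thinning the tracheal libraries to 11971725 reads, and removal of each library's trend of log2 CPM on gene length. In simulated data for 17989 genes, the test called 84 of 100 genes changed by 2-fold, 94 of 100 changed by 4-fold and 15 unchanged genes. The changed genes were drawn from the better expressed ones, up and down in equal number, and all others were set equal between the groups. In the real comparison 63.8% of genes were called, so these figures need not hold for it. The counting was not stated to use strand, so overlapping genes on opposite strands can share reads, as can close relatives among the keratins and detoxifying enzymes.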

Additional observations from a re-analysis of the deposited data

How the results depend on the processing

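Of 218 genes named and tested, 192 kept their direction and side of the threshold in all 16 alternative settings that tested them, and the total of called genes ran from 10363 to 12425. Scaling by library size alone moved the higher genes from 5204 to 7860 and reversed 12 of the 11469 calls; no other setting reversed a call. Under it *Xrcc6* moved to 0.289 and passed the test. *Barx1*, with 0 reads in both groups, was given -1.85 by limma voom. The lists of tight junctions, lineage transcription factors and core NHEJ, whose medians lie near 0, changed sign by library size alone. Leaving out single libraries moved medians near 0 by more than 1.5 times, between -0.101 and -0.0175 for tight junctions, between 0.00395 and 0.137 for the Notch pathway and between -0.0903 and 0.0467 for core NHEJ. Leaving out single libraries gave 10542 to 10908 called genes, 4778 to 4913 higher and 5635 to 6127 lower; the lowest total was without airway CD24lo replicate 1. Thinned tracheal libraries gave 4643 higher and 6283 lower. Differences rose with gene length, from a median log2 fold change of -0.516 in the shortest of 5 length bins to 0.249 in the longest; after removal of this trend 5040 were higher and 6132 lower. In the lung libraries, which were shallower, genes with few reads have wide errors.

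Same-numbered libraries came from different mice, so the replicate number pairs nothing: deviations from the group means of same-numbered libraries correlated at 0.0241, 0.00273 and -0.0268. With the replicate number as a block in a fit of the 6 libraries 10363 genes were called, against 10664 in the same fit without the block. Under the block *Cyp2f2* (edgeR adjusted p 0.0597) and *Epcam* (0.0515) did not pass.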

Other observations

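Rarer airway cell types also differed between the groups. Of 12 tuft cell and ionocyte markers 8 were higher in BSCs and 3 lower. Without airway CD24lo replicate 3, 5 were higher, and in thinned tracheal libraries 4 were. The summed level of the 12 markers was lower in BSCs, at 94.32 to 112.1 RPKM against 130 to 167.4 RPKM. *Trpm5*, the cation channel of tuft cells, was at 3.72, 3.47 and 3.14 RPKM in BSCs and 0.168, 0.179 and 0.0263 RPKM in airway CD24lo cells (log2FC 4.71, SE 0.335), and *Avil*, an actin-binding tuft cell gene, at 2.63, 2.72 and 2.33 RPKM against 0.577, 0.421 and 0.417 RPKM. *Pou2f3*, the factor that defines tuft cells, had 476 BSC reads and 2 airway CD24lo reads, and *Foxi1*, the factor of ionocytes, had 24 and 0. In thinned tracheal libraries the *Foxi1* call was lost (edgeR adjusted p 0.108). The tracheal non-basal cells held more *Trpm5* and *Foxi1* than the BSCs, at 7.698 ± 1.66 and 2.04 ± 0.229 RPKM (SD, n = 3). The median marker stood at 47.6%, 43.8% and 40.6% of the non-basal mean in BSC libraries.

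Of 10 neuroendocrine markers, 7 were lower in BSCs and 3 did not pass. The neuropeptide gene *Calca* was at 0.115, 0.3897 and 0.152 RPKM against 2.04, 3.89 and 2.78 RPKM (log2FC -3.70, SE 0.369). Among mesothelial markers *Msln* was higher in BSCs at 128, 117 and 103 RPKM against 33.1, 32.4 and 53.1 RPKM (log2FC 1.56, SE 0.267), and was at 1242 ± 22.6 RPKM in tracheal non-basal cells (SD, n = 3), while *Upk3b*, at 5.698, 3.04 and 10.5 RPKM in airway CD24lo cells, had 1 BSC read. Goblet cell markers were lower in 8 of 9, with *Clca1* at 4.88, 6.53 and 5.49 RPKM against 40.3, 68.1 and 52.6 RPKM (log2FC -3.25, SE 0.2902) and *Agr2* at 74.2, 50.6 and 39.9 RPKM against 39.2, 38.1 and 60.1 RPKM and not past the test.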
